A study of Rattus norvegicus with 8 samples.

Results

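The genes described here encode the class II antigen presentation machinery of the rat lung: 10 genes chosen by name, which are RT1-Da, RT1-Db1, RT1-Ba, RT1-Bb, RT1-DMa, RT1-DMb, RT1-DOa, RT1-DOb, Cd74 and Ciita. Every array probe whose RefSeq accession belongs to one of them was taken, which gave 11 probes among 45598, for 10 of the 16667 genes with a symbol on the array. Ciita has 2 probes, called A and B below, and each other gene has 1. The probe of RT1-Ba was not well above background on any of the 8 arrays and is described no further, which leaves 10 probes of 9 genes.

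The lung RNA came from male rats in 4 groups of 2 samples, each hybridised to its own 1-colour array. Naive rats breathed normal air. Smoke rats were exposed to cigarette smoke (CS) for 12 weeks. EV and MSC rats had the same 12 weeks of smoke and then, in week 13, an intratracheal dose of hUC-MSC-EV (extracellular vesicles of human umbilical cord mesenchymal stem cells, from about 2500000 cells) or of about 2500000 hUC-MSC (the cells themselves). The labels used here give no strain or age, mention no sham instillation for the smoke group, and do not say whether replicates are separate animals, so a p-value reflects sample-to-sample spread that could be technical. The arrays share 1 slide and each group fills 1 of its 4 columns, so slide column cannot be told apart from group.

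Class II molecules are pairs of an alpha and a beta chain that show peptides from the endosome to CD4 T cells. The invariant chain fills their groove until they reach the endosome, where the DM pair helps to exchange its remnant for a peptide and the DO pair restrains DM. Dendritic cells, B cells and macrophages carry them, alveolar type 2 cells of the lung do so too, and the coactivator CIITA, which does not bind DNA itself, switches their genes on through a shared promoter module.

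Letters of that module can be read in the rat promoters, in full or in part. They are shown here because the RT1 genes differ both in these letters and in their array values. Whether letters and values are related was not tested. The stretches of RT1-DOa and RT1-Ba are not printed. RefSeq promoter windows of build GRCr8, running from 250 bases before to 50 bases after each gene's start, were given for 8 of the 10 genes, 7 of them RT1 genes. Each stretch below is read 5′ to 3′ in the direction of its gene and ends 10 bases after its ATTGG, the reverse complement of CCAAT and the core of the Y box to which NF-Y binds. Capitals mark ATTGG and, where it lies upstream of it, AGCAAC, letters found in the X box to which the RFX complex binds.
RT1-Da, chr20:4515321-4515380, plus strand: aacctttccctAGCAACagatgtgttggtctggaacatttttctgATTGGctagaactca
RT1-Db1, chr20:4560228-4560287, minus strand: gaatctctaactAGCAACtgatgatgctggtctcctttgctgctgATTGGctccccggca
RT1-DOb, chr20:4627592-4627651, minus strand: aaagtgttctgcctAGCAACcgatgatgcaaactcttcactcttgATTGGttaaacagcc
RT1-DMa, chr20:4712385-4712444, minus strand: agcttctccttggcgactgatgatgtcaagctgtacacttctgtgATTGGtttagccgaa
RT1-Bb, chr20:4604165-4604224, minus strand: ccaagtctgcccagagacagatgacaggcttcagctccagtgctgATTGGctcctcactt

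CCAAT, on either strand, was present in all 7 RT1 windows and in 37.5% of the 33469 windows of the whole table. The longer TGATTGG, chosen after these windows had been read and overlapping CCAAT on the other strand, was also in all 7 and in 7.06% of the table. AGCAAC, on either strand, was in 4 of the 7 and in 14.7% of the table. Those 4 were RT1-Da, RT1-Db1, RT1-DOa and RT1-DOb, in which AGCAAC began 34, 33, 34 and 31 bases before ATTGG. In the gene's direction, AGCAAC followed by ATTGG at 30 to 36 bases (a spacing chosen after the windows were read) occurred in 16 windows of the table, 0.0478%. Besides those 4 genes these 16 included RT1-Db2 and RT1-Ha, class II relatives of the same chromosome 20 region. These are exact matches of letters in a window, so near variants of either letter group are not counted. RT1-Da, RT1-Db1 and RT1-DOb, with both letter groups, and RT1-DMa, with ATTGG alone, passed the test for smoke below. RT1-DOa, with both, and RT1-Bb, with ATTGG alone, did not. The window of Cd74, which also passed, held CCAAT and AGCAAC on either strand, but neither TGATTGG nor the spaced pair.

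All levels are log2 signals relative to the 75th percentile of the same array's spots, here the percentile scale, on which that percentile is 0. A level compares arrays for 1 probe and not 1 probe with another. That percentile was 6.49 times as high on the smoke as on the naive arrays, whereas the added E1A control RNAs stood at 0.832 times their naive signal, so a second scale set to those controls is given beside the calls. Between 48.1% and 71.3% of probes were well above background on an array, the 2 arrays of each group had correlations of 0.951 to 0.979 over the probes. All 7 probes of lung tissue genes such as Sftpc, Scgb1a1 and Ager were well above background on all 8 arrays. In whole lung, fewer cells of a type and less RNA per cell cannot be told apart.

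The first comparison asks what 12 weeks of smoke did to these genes. On the percentile scale, 6 of the 10 probes were higher in smoke than in naive lung and 0 were lower, by limma with Benjamini-Hochberg adjustment over all 29612 probes tested. They were the chains RT1-Da and RT1-Db1, both DM chains, RT1-DOb and the invariant chain gene Cd74, with differences of 1.19 to 2.31 log2. Calls were common in this comparison: 46.5% of all probes passed, 12.8% as higher and 33.7% as lower. The median of the 10 probes was 1.36, against -0.56 for all probes.

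RT1-Da, the alpha chain of the DR-like RT1.D molecule, stood at 0.59 and -0.17 in naive, 2.65 and 2.40 in smoke, 0.63 and 0.22 in EV and -0.66 and 1.75 in MSC lung (replicate 1, then 2). Both smoke arrays lay above all other arrays, and the 2 MSC arrays lay farther apart than those of any other group. The difference between smoke and naive was 2.31 (SE 0.71, adjusted p = 0.0310), a 4.98-fold rise. RT1-Db1, the beta chain of the same molecule, stood at 1.36 and 1.10 in naive, 3.05 and 2.84 in smoke, 1.72 and 1.38 in EV and 1.48 and 2.96 in MSC lung. Here MSC replicate 2 reached the smoke arrays, while the EV pair lay between naive and smoke without touching either. Its rise with smoke was 1.71 (SE 0.47, adjusted p = 0.0215), or 3.27-fold. The probe of RT1-Db2, a close relative and no member of the set, gave 1.10 and 0.44 in smoke against -1.90 and -1.77 in naive lung (2.60, SE 0.44, adjusted p = 0.00404). How far the RT1-Db probes read each other's transcripts was not tested.

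RT1-Bb, the beta chain of the DQ-like RT1.B molecule whose alpha chain probe was too dim to read, behaved less evenly. It stood at 1.49 and -0.15 in naive, 2.06 and 1.61 in smoke, 1.90 and 1.55 in EV and 0.46 and 2.91 in MSC lung. Smoke lay above naive without overlap, but the naive arrays were so far apart that the difference of 1.17 (SE 0.81, adjusted p = 0.264) did not pass. The EV arrays overlapped the smoke arrays, and the MSC arrays enclosed them.

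**Figure D1:**
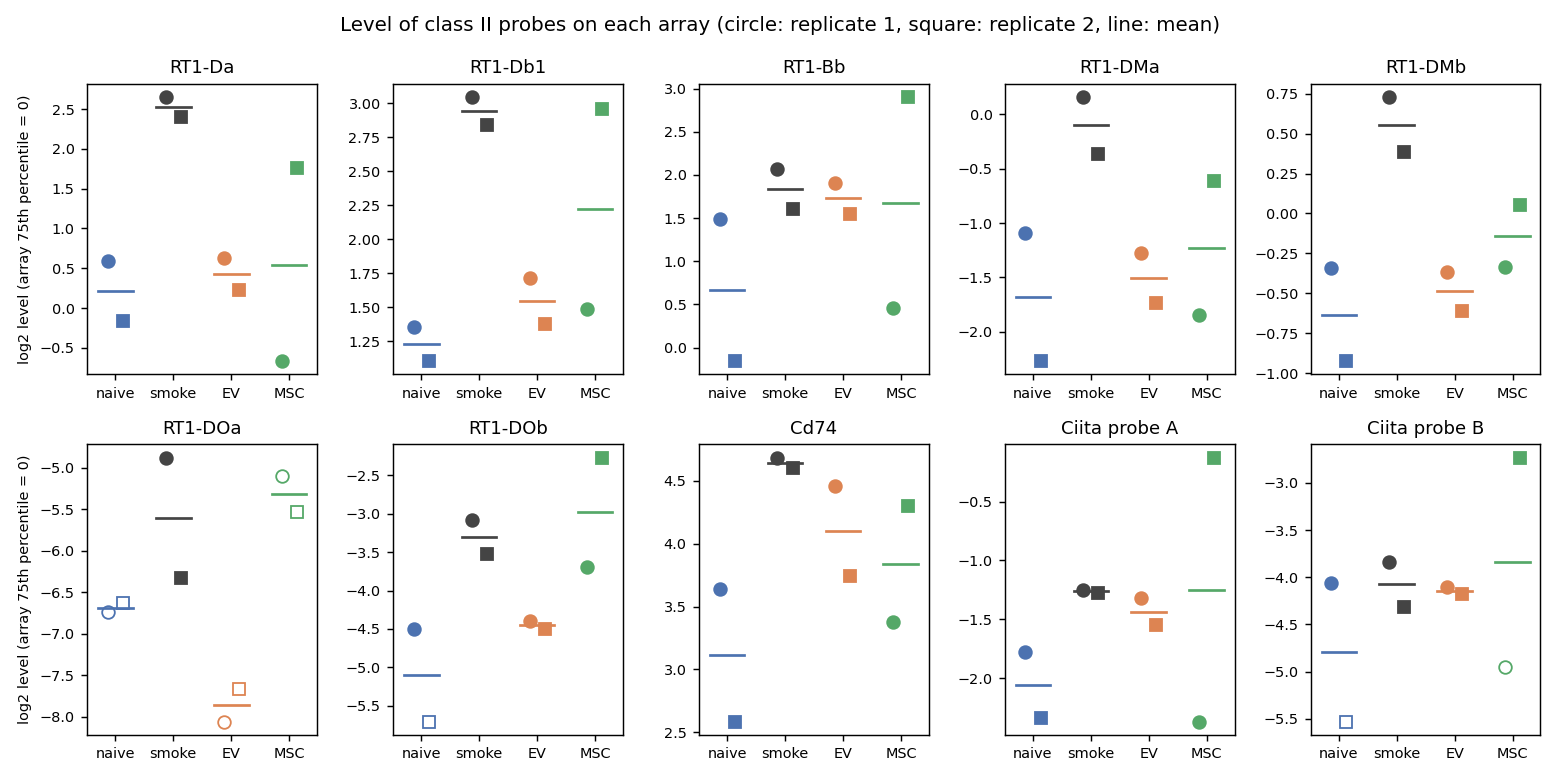
Log2 level (array 75th percentile at 0) of the 10 readable class II probes on each of the 8 arrays, by group; circles are replicate 1, squares replicate 2, lines the group means, and open symbols arrays on which the probe was not well above background. Both smoke arrays lie above both naive arrays for all probes but Ciita probe B, and the 2 MSC arrays are far apart for most probes, with replicate 2 above replicate 1 except for RT1-DOa.

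The DM chains, which load peptide in the endosome, gave close patterns. RT1-DMa stood at -1.09 and -2.27 in naive, 0.16 and -0.37 in smoke, -1.28 and -1.73 in EV and -1.85 and -0.61 in MSC lung. Both smoke arrays were the highest of the 8, and the difference from naive was 1.57 (SE 0.54, adjusted p = 0.0447). RT1-DMb stood at -0.35 and -0.92 in naive, 0.73 and 0.38 in smoke, -0.36 and -0.61 in EV and -0.33 and 0.05 in MSC lung. Again both smoke arrays topped the order, and the naive and EV arrays overlapped. The difference was 1.19 (SE 0.33, adjusted p = 0.0215).

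The DO chains, which restrain DM and are best known from B cells, were dim. RT1-DOb stood at -4.50 and -5.70 in naive, -3.08 and -3.52 in smoke, -4.39 and -4.51 in EV and -3.69 and -2.27 in MSC lung, with naive replicate 2 not well above background. Smoke lay above naive and EV, and the MSC arrays enclosed it. The rise with smoke was 1.80 (SE 0.55, adjusted p = 0.0314), but it became -0.15 after normexp background correction. RT1-DOa was well above background on the smoke arrays alone, at -4.88 and -6.33. It was not well above background on either naive array, so smoke was at least 1.47-fold higher, and the fit did not call it (adjusted p = 0.0953). It entered the test only because both smoke arrays were well above background, a selection that favours a higher value in smoke. After normexp it was called in the opposite direction, at -1.52 (adjusted p = 0.000217).

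Cd74, the invariant chain that chaperones class II, was read by 10 spots per array. It stood at 3.64 and 2.58 in naive, 4.68 and 4.60 in smoke, 4.46 and 3.74 in EV and 3.38 and 4.30 in MSC lung. The smoke arrays were the highest and the closest pair, and naive replicate 2 was the lowest of the 8. The difference between smoke and naive was 1.53 (SE 0.48, adjusted p = 0.0328), or 2.90-fold. Ciita, the coactivator, was not called by either probe. Probe A stood at -1.78 and -2.33 in naive, -1.25 and -1.28 in smoke, -1.32 and -1.55 in EV and -2.37 and -0.13 in MSC lung, a difference of 0.79 for smoke (SE 0.65, adjusted p = 0.338). Smoke lay above naive by less than the distance between the MSC arrays. The dimmer probe B gave 0.72 (SE 0.74, adjusted p = 0.443) with overlapping groups, and was not well above background on naive replicate 2 and MSC replicate 1. After normexp probe B was called lower in smoke than in naive lung, at -1.02 (adjusted p = 0.00289), and higher in EV than in smoke lung, at 0.85 (adjusted p = 0.0111). Its processed signals of 34.1 and 7.8 in naive and 44.3 and 26.6 in EV lung were below the normexp offset of 50.

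Groups that do not overlap were seen for 9 of the 10 probes, always with smoke higher, where 25.4% of all probes had smoke higher without overlap. On the spike-in scale all 10 probes were called higher, with differences of 3.68 to 5.28, and so were 83.5% of all probes, whose median was 2.41. The share of all calls that were higher was 27.6% on the percentile scale, 10.6% after normexp, 49.8% after quantile normalization, 52.3% after cyclic loess and 99.5% on the spike-in scale. Relative to the median of all probes, each of the 10 lay above it on the percentile scale. The spike-in scale moves all probes of an array by the same amount, so it gives no second check of this. After normexp RT1-DOa, at -1.52, lay below the all-probe median of -1.20, and Ciita probe B at -1.02 and RT1-DOb at -0.15 above it. The 6 calls each rest on 2 arrays against 2: without naive replicate 2 or without smoke replicate 1 the count fell to 0, without smoke replicate 2 to 2, and without naive replicate 1 to 4.

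**Figure D2:**
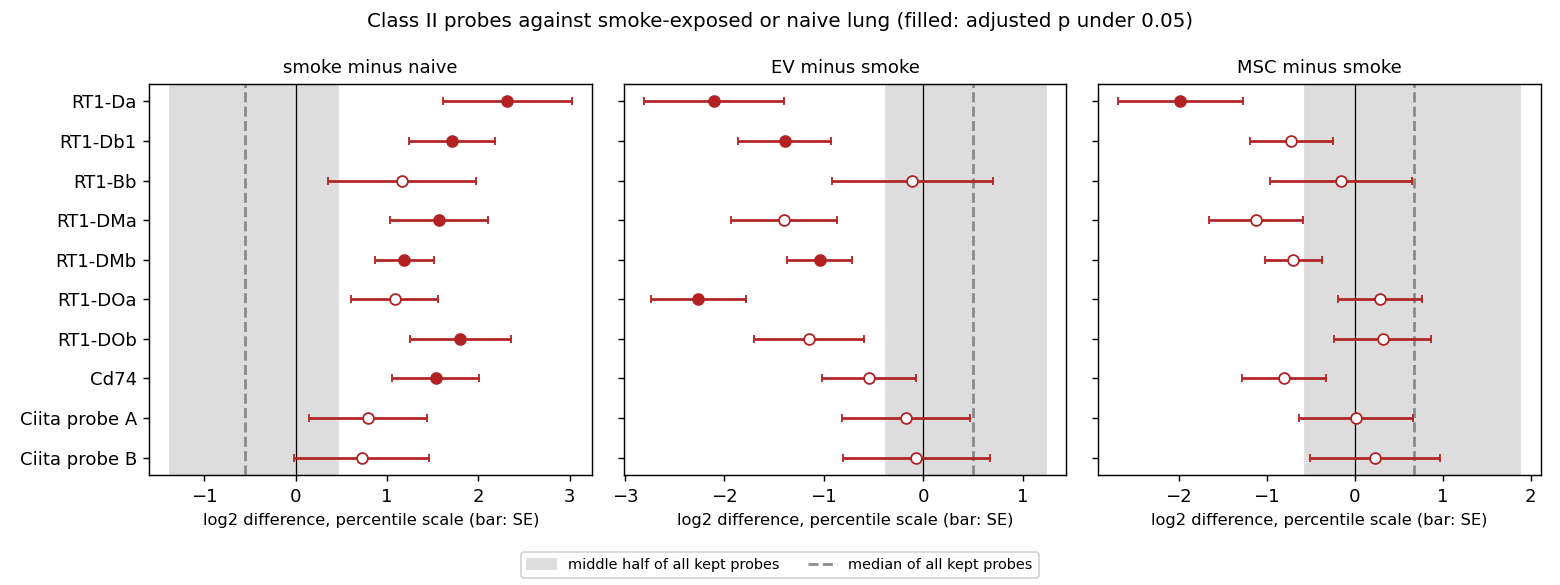
Log2 differences (percentile scale) of the 10 class II probes in smoke against naive, EV against smoke and MSC against smoke; points are fitted differences, bars their standard errors, filled points passed an adjusted p of 0.05, and the grey band and dashed line are the quartiles and median of all 29612 probes. In smoke against naive all 10 points lie right of the grey median line, and in the other panels all 10 lie left of it; these panels share the smoke arrays.

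The 2 treatment comparisons ask how lungs given vesicles or cells after smoke differed from smoke-exposed lungs. They share their smoke arrays with each other and with the first comparison, so the values are given side by side only. In EV against smoke, 4 of the 10 probes were lower and 0 higher, where 39% of all probes passed, 28.4% as higher and 10.6% as lower. RT1-Da was lower by -2.10 (SE 0.71, adjusted p = 0.0488), RT1-Db1 by -1.39 (SE 0.47, adjusted p = 0.0492) and RT1-DMb by -1.04 (SE 0.33, adjusted p = 0.0392). RT1-DOa, not well above background on either EV array, was at least 1.81-fold lower (adjusted p = 0.0107). It was tested only through the smoke arrays, which favours this direction, and without it 3 of 9 probes were lower. After normexp it was called higher in EV, at 1.15 (adjusted p = 0.00282), where its processed signals of 2.9 and 2.4 were below the offset of 50.

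The other members did not pass in EV lung. RT1-DMa gave -1.40 (SE 0.54, adjusted p = 0.0720) and RT1-DOb -1.15 (SE 0.55, adjusted p = 0.133), both without overlap between the groups. Cd74 gave -0.55 (SE 0.48, adjusted p = 0.382), with EV replicate 1 close to the smoke arrays. RT1-Bb at -0.11 and the Ciita probes at -0.17 and -0.07 differed by less than their standard errors of 0.65 to 0.81. Smoke and EV did not overlap for 8 of the 10 probes, always with EV lower, where 26.3% of all probes had EV lower without overlap. The median of the 10 was -1.10, against 0.50 for all probes, and on the spike-in scale all 10 were called lower, as were 74.5% of all probes. The share of all calls that were higher was 72.9% on the percentile scale, 88.8% after normexp, 51.8% after quantile normalization, 46.9% after cyclic loess and 0.908% on the spike-in scale. Leaving out smoke replicate 1 or either EV replicate took the count to 0, and leaving out smoke replicate 2 to 1. With no filter on dim probes the count was also 1, where 8195 of all 45168 probes were called.

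In MSC against smoke only RT1-Da was called, lower by -1.98 (SE 0.71, adjusted p = 0.0426), where 58.8% of all probes passed, 41.9% as higher and 16.9% as lower. RT1-DMa at -1.13, RT1-DMb at -0.70 and Cd74 at -0.80 also had all MSC arrays below all smoke arrays but did not pass (adjusted p of 0.106, 0.102 and 0.181). These made 4 of the 10 probes without overlap and with MSC lower, where 26.5% of all probes had that pattern. RT1-Db1 gave -0.72 (adjusted p = 0.221), with overlapping groups. RT1-Bb, RT1-DOa, RT1-DOb and both Ciita probes lay between -0.16 and 0.32, less than 1 standard error from 0. Of these, RT1-DOa, RT1-DOb and both Ciita probes were at or above 0 on the percentile scale and below it after quantile normalization and cyclic loess. The median of the 10 was -0.43, against 0.67 for all probes, and on the spike-in scale all 10 were called lower, as were 88.5% of all probes. The share of all calls that were higher was 71.2% on the percentile scale, 89.1% after normexp, 47.8% after quantile normalization, 46.9% after cyclic loess and 0.780% on the spike-in scale.

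The 2 MSC arrays differed widely in these genes. Replicate 1 was below replicate 2 for 9 of the 10 probes, by a median of -1.45 and by up to -2.45 in RT1-Bb, while the quartiles of all probes were -0.38 and 0.54. RT1-Da differed by -2.42 between the MSC arrays, Ciita probe A by -2.24 and probe B by -2.22. RT1-DOb differed by -1.42, and RT1-DOa, dim on both, by 0.44. The other pairs leaned the opposite way and less: replicate 1 was above replicate 2 for 9 of 10 probes in naive lung (median 0.91), for 10 of 10 in smoke (0.39) and for 9 of 10 in EV lung (0.29). Replicate numbers carry no order, and the labels do not tie a number to a shared animal or day.

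**Figure D3:**
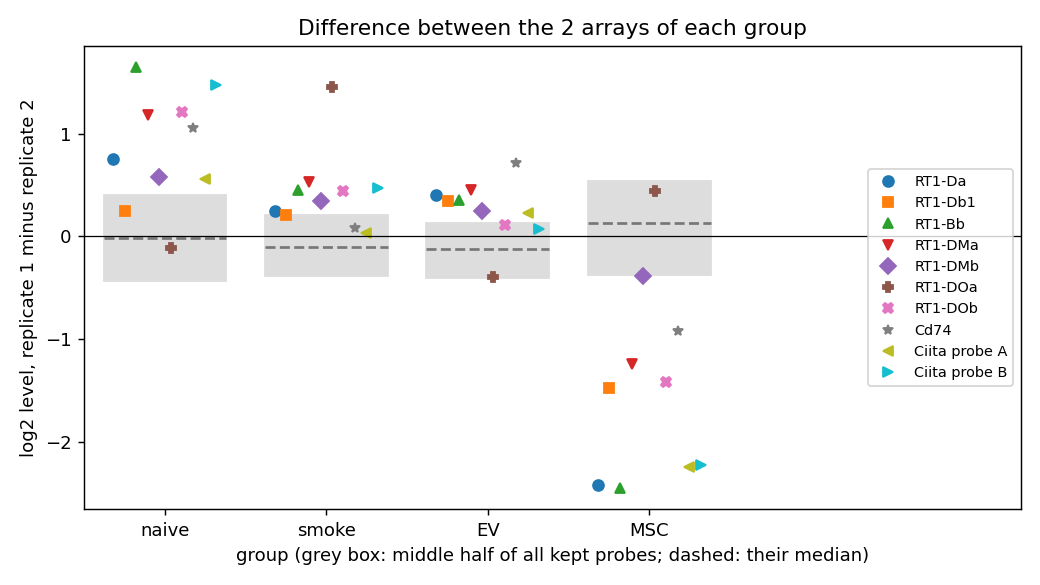
Difference in log2 level (percentile scale) between replicate 1 and replicate 2 of each group for the 10 class II probes; the grey box spans the quartiles of all kept probes and the dashed line is their median. In the MSC group 9 of 10 points lie below 0 with a median of -1.45, and in the naive, smoke and EV groups at least 9 of 10 lie above 0.

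Markers of other cells gave mixed differences between the MSC arrays. MSC replicate 2 was the highest of the 8 arrays for Cr2, a complement receptor of B cells (-3.73, against -6.89 on replicate 1, where it was not well above background). For Cd79b, part of the B cell receptor complex, it stood at -0.70 against -4.26, level with smoke replicate 1 at -0.59. Pax5, the B cell transcription factor, did not follow, at 0.07 against 0.22. These 3 B cell probes summed to 1.74 times the array's 75th percentile on MSC replicate 2 and 1.22 on replicate 1. Such a sum weighs the brightest probe of a list most, which was Pax5 on both MSC arrays. The other arrays gave 0.582 and 0.827 in naive, 0.844 and 0.370 in smoke and 0.527 and 0.546 in EV lung. The 5 T cell probes were all higher on MSC replicate 2, summing to 5.80 against 2.90, and all 8 alveolar type 2 probes were lower there, summing to 859 against 1646. The T cell probe of Cd8a was not well above background on either MSC array. The 9 dendritic cell probes summed to 1.49 against 1.77 and the 8 macrophage probes to 1.86 against 1.99. On replicate 2, 6 of these dendritic cell and 4 of these macrophage probes were well above background, and on replicate 1, 5 and 5. The part of these marker differences in the class II values was not tested.

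**Figure D4:**
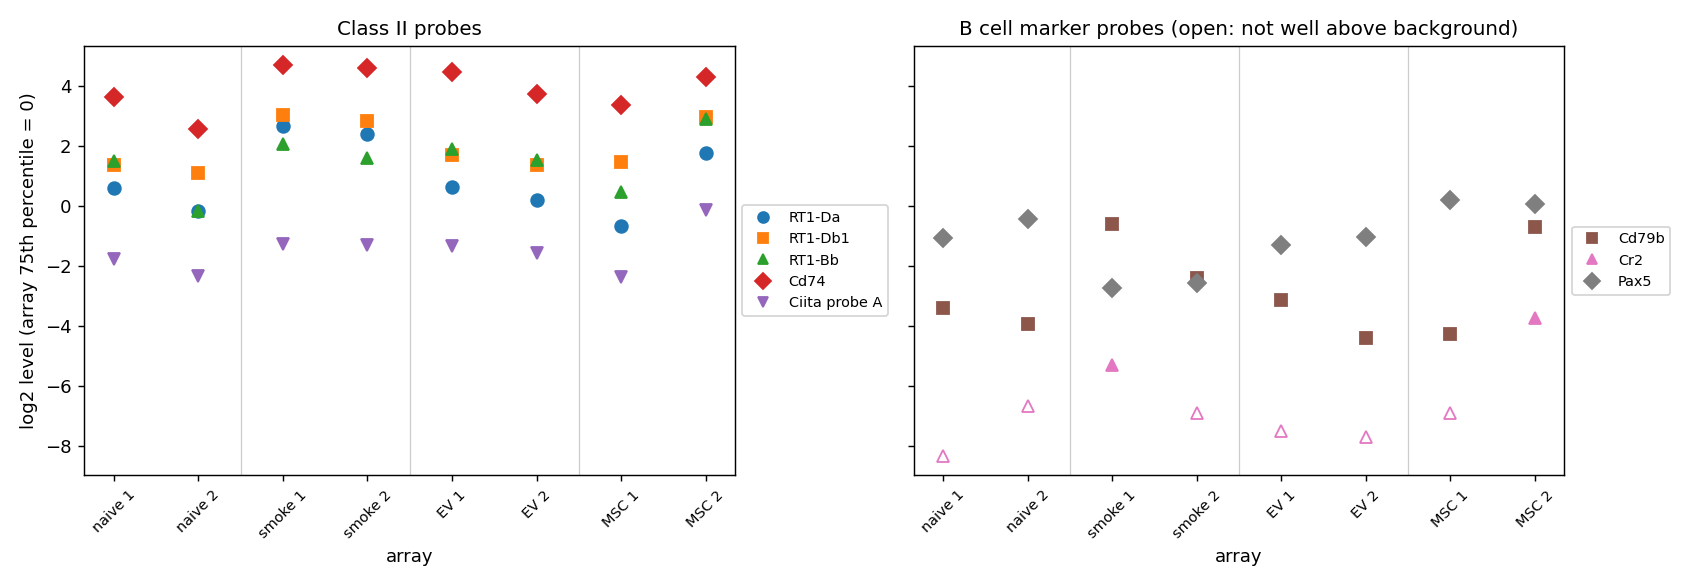
Log2 level (percentile scale) on each of the 8 arrays of 5 class II probes (left) and of 3 B cell marker probes (right); open symbols are arrays on which the probe was not well above background. On MSC replicate 2, Cr2 reaches its highest value, -3.73, and the 5 class II probes lie above MSC replicate 1, while Pax5 hardly differs.

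Without MSC replicate 2, differences from smoke were -3.19 for RT1-Da, -1.46 for RT1-Db1, -1.74 for RT1-DMa and -1.11 for Ciita probe A. Ciita probe B and RT1-DOb turned to -0.88 and -0.39. Without MSC replicate 1, Ciita probe A lay 1.14 above smoke, RT1-Da stood at -0.77 and RT1-Bb turned to 1.07. These fits leave 1 MSC array, so only the differences are given. The RT1-Da call was lost without MSC replicate 1, without smoke replicate 1 and without smoke replicate 2. Over all 17 alternatives the adjusted p ran from 3.86e-06 to 0.166 for RT1-Da, from 6.19e-06 to 0.966 for RT1-Db1, from 7.87e-06 to 0.466 for RT1-DMa, from 0.00027 to 0.964 for RT1-Bb and from 8.92e-05 to 1.00 for Ciita probe A. After normexp 8 of the 10 probes were called, 3 of them higher, where 23370 of all 29612 probes were called, 89.1% of them higher.

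The direct comparison of vesicles with cells gave 1 call, RT1-DOa, where 5.87% of all probes passed, 4.31% as lower. It was lower in EV by -2.55 on the percentile scale (adjusted p = 0.0404), but it was not well above background on any of these 4 arrays, so no fold is given, and the call was lost when any 1 of the 4 arrays was left out and under 12 of 16 alternatives in all. It entered the test through the smoke arrays only. The other 9 probes lay between -1.47 and 0.26. On the spike-in scale 9 of the 10 differences were above 0, with a median of 1.25 against -0.29 on the percentile scale. There RT1-DOa at -1.01 was not called (adjusted p = 0.186), and Cd74 was called higher at 1.79 (adjusted p = 0.0452), as were 40.5% of all probes. Against naive lung no member was called by limma in either treatment group, which with 2 arrays against 2 does not show equal levels. In EV against naive 0 of the 10 probes were called and 1 had an unadjusted p under 0.05. Differences ran from -1.18 to 1.06, 9 of them above 0, with a median of 0.47 against -0.05 for all probes. In MSC against naive 0 were called and 2 had an unadjusted p under 0.05. All 10 differences were above 0, from 0.33 to 2.12 (RT1-DOb, adjusted p = 0.125). Their median was 0.88 against 0.23 for all probes. In both, 0% of all probes were called (4.20% and 21.6% at an unadjusted p under 0.05). On the spike-in scale the 10 differences of MSC against naive ran from -0.73 to 1.06, 8 of them below 0.

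A ratio between members on 1 array is free of the array's scaling. The difference between RT1-Da and Cd74, set to 0 at its naive mean, was -0.15 and 0.15 in naive, 0.87 and 0.70 in smoke, -0.93 and -0.62 in EV and -1.14 and 0.35 in MSC lung. Smoke lay above and EV below the naive pair, so the 2 probes did not move by equal amounts in either group. RT1-Bb against Cd74 was below the naive mean on both smoke arrays (-0.18 and -0.56), within the naive range of -0.30 to 0.30 on the first alone. RT1-DMa against Cd74 was 0.26 and -0.18 in smoke and -0.95 and -0.68 in EV lung, and RT1-DMb against Cd74 was -0.21 and -0.48 in smoke and -1.08 and -0.60 in EV lung. For these DM ratios the EV arrays were the lowest pair.

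Correlations of the members across the 8 arrays are given as description, since the points share arrays, scaling and groups. Pearson correlations were 0.96 for both DM chains and 0.95 for RT1-Da and RT1-DMa. RT1-Bb correlated at 0.94 with Ciita probe A, 0.97 with probe B and 0.70 with RT1-Da. Cd74 lay between 0.81 and 0.87 with RT1-Da, RT1-Db1, RT1-Bb and both DM chains, and RT1-DOa at 0.61 or less with every member. Among 12720 genes with a kept probe, the levels most like Cd74 over the 8 arrays were those of Fam98c (0.958), Pdlim7 (0.955) and Igbp1 (0.952). The levels most like RT1-Da were those of B9d1 (0.993), Lsm4 (0.991) and Rps10 (0.991).

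The genes around the members gave mixed values in smoke against naive lung, each list chosen with earlier results known and read against the same 12.8% higher and 33.7% lower. Of the 9 probes for the promoter complex, 4 were higher and 1 lower. Rfxank, a subunit of the RFX complex, was higher by 1.28 (SE 0.34, adjusted p = 0.0194), and Nfyb, an NF-Y subunit too dim to read in naive lung, was at least 2.21-fold higher by 1 probe (adjusted p = 0.0132) and not called by the other (1.11). Both Nfyb probes were tested through the smoke arrays only, and after normexp the first was called lower, at -1.38 (adjusted p = 0.000446). Rfx5, the DNA-binding RFX subunit, was lower by -1.25 (SE 0.28, adjusted p = 0.0106), which turned to 1.72 on the spike-in scale. The list's median was 1.11, against -0.56 for all probes.

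Of the 10 tested probes for induction by interferon gamma, the main inducer of Ciita, 2 were higher and 1 lower, with a median of -0.10. The kinase gene Jak1 was higher by 1 probe, at 1.22 (adjusted p = 0.0107), while its other stood at -0.26 (adjusted p = 0.464). Jak2 was higher by 1.11 (adjusted p = 0.0161), and the receptor chain Ifngr2 lower by -1.06 (adjusted p = 0.0164), turning to 1.90 on the spike-in scale. Ifng itself was well above background on 1 array and was not tested. Of 7 probes for endosomal proteases, their inhibitor and the thiol reductase, 3 were higher and 1 lower: Ctsl rose by 1.59 (adjusted p = 0.00741) and the inhibitor Cst3 by 1.09 (adjusted p = 0.0264), while Ctsb was lower by -0.996 (adjusted p = 0.0196), turning to 1.97 on the spike-in scale. The 3 probes for the ubiquitin ligases of class II and their antagonist, Marchf1, Marchf8 and Cd83, gave -0.82, -0.09 and 0.35 and none passed by limma (0 at an unadjusted p under 0.05).

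Of 6 tested probes for costimulatory genes, which a presenting cell shows beside class II, 0 were higher and 3 lower on the percentile scale. Cd80, the ligand of CD28, was too dim to read in smoke lung and at least 13.1-fold lower there (adjusted p = 0.00448), and its fitted difference on the spike-in scale was also below 0, at -1.64. Cd40, the receptor for T cell help, was lower by -1.94 (adjusted p = 0.00379) by 1 probe, while its others stood at -0.43 and 0.94. Pdcd1lg2, a ligand of PD-1, was lower by -1.54 (adjusted p = 0.0424). Its probe was tested through the smoke arrays only and was not well above background on naive replicate 2. These lower values of Cd40 and Pdcd1lg2 turned to 1.02 and 1.42 on the spike-in scale.

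The marker lists of cells that carry class II gave these values in smoke against naive lung. Of 8 macrophage probes 4 were higher and 0 lower: Adgre1 by 2.66 (adjusted p = 0.00741), the mannose receptor gene Mrc1 by 2.23 (adjusted p = 0.00401), 1 probe of the integrin gene Itgam by at least 3.73-fold (adjusted p = 0.0407) and 1 more. The higher Itgam probe was tested through the smoke arrays only, which favours this direction. It stood at -2.65 and -6.12 in smoke against -8.38 and -6.66 in naive lung. The other Itgam probe stood at -1.22 (adjusted p = 0.0653). The remaining macrophage probes, which did not pass, stood at -0.83, -0.29 and 0.40. Neither Adgre1 nor Mrc1 was well above background on naive replicate 2. Adgre1, Mrc1 and Itgam turned to -0.037, -0.16 and -0.56 after normexp. The macrophage probes summed to 2.69 and 1.89 times the 75th percentile in naive, 4.28 and 2.91 in smoke, 2.25 and 2.57 in EV and 1.99 and 1.86 in MSC lung, so smoke was the highest pair. In these sums the brightest probe weighs most, so they do not show a rise across the list. In EV against smoke 2 of the 8 macrophage probes were lower, where 10.6% of all probes were called lower. In MSC against smoke 2 were lower, where 16.9% of all probes were. Of 7 tested dendritic cell probes 1 was lower, the transcription factor gene Zbtb46 at -1.17 (adjusted p = 0.0344). The directions were mixed among the others, which did not pass. The other Zbtb46 probe stood at -0.79, Ccr7 at -1.10, the Clec9a probes at 1.24 and 0.98, and the remaining probes at -0.41 and 0.43. The dimmer Clec9a probe was tested through the smoke arrays only. The list summed to 0.649 and 0.779 in smoke against 1.10 and 0.832 in naive lung. Xcr1 and Cd209a were not well above background on any array.

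Of 2 tested B cell probes Pax5 was lower at -1.91 (adjusted p = 0.00379) and Cd79b stood at 2.18 without passing (adjusted p = 0.140). Of 5 T cell probes Cd8a was at least 9.88-fold higher (adjusted p = 0.0161), and Cd3e and Cd3d were lower by -2.45 (adjusted p = 0.00337) and -1.11 (adjusted p = 0.0285). Cd8a was tested through the smoke arrays only, a selection that favours a higher value in smoke. Of 8 alveolar type 2 probes 1 was higher and 4 lower. The higher probe was 1 of Sftpa1, at 1.59 (adjusted p = 0.0380), whose other probe stood at 0.60, named here after its values were seen. The lower ones included the surfactant genes Sftpc at -2.23 (adjusted p = 0.00377), Sftpb at -1.42 (adjusted p = 0.0134) and Sftpd at -1.65 (adjusted p = 0.0153), and the list summed to 487 and 499 in smoke against 1334 and 1680 in naive lung. Pax5, Cd3e, Cd3d and the 3 surfactant genes were above 0 on the spike-in scale. The part of these cell types in the class II values was not tested.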

How the data were processed

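Scanner images of the 8 arrays were read by the authors with Agilent Feature Extraction (version 10.7.3.1, per the file headers). The intensity values deposited by the authors are, per spot, a processed signal after background subtraction and spatial detrending, and median spot and background signals. Values were not normalized between arrays, and no later step of the authors is given in the sources used here. Flags for outliers and for signal well above background were taken as deposited.

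Outlier spots were dropped, the log2 processed signals of a probe's spots averaged, and the 75th percentile over non-control spots subtracted. Probes were tested where any group had both arrays well above background: 29612 of 45598, after leaving out 189 with no value on some array. Gene symbols came from RefSeq accessions (21215 probes matched, assembly GRCr8). limma 3.58.1 (R 4.3.3, the data.table package, version 1.17.8) fitted 4 group means over the 8 arrays at probe level, with no block, 4 residual and 3.61 prior degrees of freedom, and 2-sided tests, Benjamini-Hochberg adjusted per comparison at 0.05 (6 comparisons). The spike-in scale subtracts the mean log2 signal of the E1A control probes with a mean above 6 (7 of 10). An "at least" fold sets the brighter group's mean against, per array of the dimmer group, the probe's signal or, if higher, the lowest one that any probe well above background had, and holds on the percentile scale only. Summed marker levels are sums of signals over the array's 75th percentile, so the brightest probes of a list weigh most. Figures were drawn with Python 3.11.15 and matplotlib 3.10.9.

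The members, lists and rules were chosen with earlier results of these data known. The text names every member probe, from each other list up to 3 genes with the smallest p in smoke against naive, and the 3 genes most like Cd74 and RT1-Da; 1 gene of a marker list is not reported here. The fit was tested on simulated data. Alternatives were normexp background correction (offset 50, median signals), quantile normalization, cyclic loess, the E1A scale, no filter or a filter on all 8 arrays, a trended and robust prior, a replicate block, array weights, fits of the 2 groups compared, each array left out in turn, and probes averaged per gene. Chosen after seeing the data were a percentile over probes, a fit without both smoke arrays and a crossed block.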

Additional observations from a re-analysis of the deposited data

How the results depend on the processing

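Counts of called class II probes were recomputed under each alternative. With scaling to the E1A controls the count became 10 in each of the 3 comparisons with the smoke arrays. There 24863 (smoke against naive), 22255 (EV against smoke) and 26402 (MSC against smoke) of all 29612 probes were called. In EV against smoke, 4 calls became 1 with no filter on dim probes and 2 with the replicate block. Of all probes, 8195 of 45168 and 10893 of 29612 were called in these. In MSC against smoke, 1 call became 8 after normexp (3 higher), 3 after quantile normalization, 3 after cyclic loess, 2 with the percentile over probes, 0 in the fit of these 2 groups and 0 with the replicate block. Of all 29612 probes, 23370, 15864, 16551, 16646, 15990 and 17188 were called under these settings, in the same order. In EV against MSC, 1 call became 3 after normexp and 0 under quantile normalization, cyclic loess, no filter, the filter on all 8 arrays, array weights, the fit of these 2 groups, the fit without both smoke arrays and the replicate block. After normexp 15278 of all 29612 probes were called. No filter, array weights, the fit of these 2 groups, the fit without both smoke arrays and the replicate block called 0 of all probes. Counts with 1 array left out lay between 0 and 4 (smoke against naive), 0 and 1 (EV against smoke), 0 and 4 (MSC against smoke) and at 0 (EV against MSC). The causes were not tested, apart from the fewer arrays.

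Same-numbered replicates did not deviate together: correlations of their deviations from the group means ran from -0.14 to 0.14 over the 6 pairs of groups. The numbers are therefore not used as pairs. With the replicate block smoke against naive gave 5 calls, and crossing the MSC numbers gave 3 in MSC against smoke. Of all 29612 probes, 13283 and 17524 were called in these fits.

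Directions of single members reversed as follows. After normexp, smoke against naive became -1.52 for RT1-DOa, -0.15 for RT1-DOb and -1.02 for Ciita probe B, and EV against smoke 1.15, 0.022 and 0.85. The normexp offset of 50, which is added to median signals, exceeds the processed signals of these probes on all naive and EV arrays. It also exceeds the processed signal of RT1-DOa on smoke replicate 2, at 33.4. The part of the offset in these reversals was not tested. For MSC against smoke, RT1-DOa, RT1-DOb and Ciita probes A and B became -0.93, -0.29, -0.27 and -0.57 after quantile normalization and -1.35, -0.56, -0.39 and -0.72 after cyclic loess. They became -0.11, -0.076, -0.38 and -0.17 with the percentile over probes and -3.73, -3.70, -4.01 and -3.79 with E1A scaling. With 1 array left out, MSC against smoke ran from -1.46 to 0.018 for RT1-Db1, -1.38 to 1.07 for RT1-Bb, -0.44 to 1.01 for RT1-DOa, -0.39 to 1.03 for RT1-DOb, -1.11 to 1.14 for Ciita probe A and -0.88 to 1.34 for probe B. EV against smoke ran from -0.34 to 0.12 for RT1-Bb and -0.31 to 0.17 for Ciita probe B, and smoke against naive from -0.014 to 1.46 for Ciita probe B.

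Among the other genes in smoke against naive, E1A scaling gave 1.86 for Ccr7, 1.85 for Cd3d, 0.51 for Cd3e, 1.02 for Cd40, 1.97 for Ctsb, 1.90 for Ifngr2, 2.15 for Marchf1, 2.87 for Marchf8, 2.10 for Nkx2-1, 1.05 for Pax5, 1.42 for Pdcd1lg2, 1.72 for Rfx5, 1.91 for Scgb1a1, 1.55 for Sftpb, 0.74 for Sftpc, 1.31 for Sftpd and 1.80 for Zbtb46. Normexp gave -0.037 for Adgre1, -0.95 for Clec9a, -0.56 for Itgam, -0.16 for Mrc1 and -1.38 for Nfyb. Quantile normalization gave 0.15 for Marchf8, 0.39 for Scgb1a1, 0.19 for Sftpb, 0.00 for Sftpc and 0.027 for Sftpd, cyclic loess 0.31 for Marchf8 and 0.038 for Scgb1a1, and the percentile over probes 0.12 for Marchf8. With 1 array left out Marchf8 ran from -0.46 to 0.28 and Cd83 from -0.37 to 1.07. Probes not well above background on both arrays of a group are limited by their signal.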
